A study of Mus musculus with 2 samples.

Results

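The 10 genes described here, Snai1, Snai2, Zeb1, Zeb2, Twist1, Vim, Acta2, Tagln, S100a4 and Cdh2, are widely used as drivers or markers of endothelial-to-mesenchymal transition. They were picked by gene symbol, whatever their values, and are 10 of the 32589 genes counted in single nuclei of mouse hearts. In this transition an endothelial cell loses its junctions and takes on a motile, matrix-producing or contractile state. Transcription factors of the SNAIL, ZEB and TWIST families repress endothelial junction genes such as Cdh5 downstream of TGF-beta, and the effector genes encode cytoskeletal, contractile and adhesion proteins. In the heart the process builds the valve cushions of the embryo, and it is studied in the adult as a source of fibroblast-like cells.

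Nuclei came from hearts of male C57BL/6 mice that were 8 weeks old when treatment began. The PD-1 inhibitor group received InVivoPlus anti-mouse PD-1 antibody, which blocks the PD-1 checkpoint receptor of T cells, intraperitoneally at 5 mg/kg on days 1 and 14 of a 28-day cycle. The control group received PBS on the same days, and the PD-1 inhibitor group is called treated below. Each condition was 1 library, the number of hearts in it was not given in the sources used here, and the question was how the level of these genes in endothelial cells (ECs) differed between the libraries. With 1 library per condition no test between conditions was possible, and every 95% interval below covers counting error only.

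The control library held 10197 barcodes with 13177525 unique molecular identifiers (UMIs, each standing for 1 captured RNA molecule) and the treated library 7967 barcodes with 10875248 UMIs. After removal of nuclei with over 20% mitochondrial UMIs and of called doublets, 9522 and 7644 nuclei remained. The libraries shared 48 barcodes, 47 of them among the nuclei kept in each. ECs, fibroblasts and mural cells (pericytes and vascular smooth muscle) were named from marker genes of clusters built without the 10 genes. They comprised 2804 and 2509 ECs (median 895.5 and 947 UMIs), 2472 and 1970 fibroblasts (1044 and 1087.5 UMIs) and 594 and 422 mural nuclei (966 and 976 UMIs), control first. The 15 EC markers summed to 10996 and 10719 counts per 1000000 UMIs (CPM) in ECs, 772 and 716 in fibroblasts and 837 and 952 in mural nuclei. These markers also named the clusters, so the sums describe the naming and are not a separate check of it.

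ECs fell into 6 clusters, called here by leading genes. The Nrg1 Rps6ka2 cluster was endocardial-like (5 of 7 markers detected), the Aplnr Gm12002 cluster capillary-like (8 of 8), the Mmrn1 Reln cluster lymphatic-like (6 of 7), the Sema3g Mannr cluster arterial-like (7 of 8) and the Wnt9b Hapln1 cluster valve-like (5 of 6). The Ahsg H19 cluster detected 2 of 7 endocardial markers and was left without a subtype name. The libraries held them in different proportions. The endocardial-like cluster was 22.5% of ECs in the control library and 28.1% in the treated library, the Ahsg H19 cluster 27.1% and 31.9%, and the capillary-like cluster 35.1% and 27.6%.

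The transcription factors were spread unevenly over the EC clusters. Snai1 stood out in lymphatic-like ECs, Snai2 in capillary-like ECs, Zeb2 in the endocardial-like and Ahsg H19 clusters, and Twist1, from few UMIs, in endocardial-like and valve-like ECs. Zeb1 was present in every cluster and was highest in capillary-like ECs. The same clusters were highest in both libraries, and no cluster held the highest level of all 5 factors.

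Snai1 (ENSMUSG00000042821, chr2:167538195-167542814, plus strand) encodes a zinc finger repressor that silences Cdh1 and Cdh5. Its level in lymphatic-like ECs was 57.3 CPM (95% interval 32.1 to 94.5) in the control library and 82.8 (48.2 to 132.6) in the treated library. The endocardial-like, Ahsg H19 and capillary-like clusters ranged from 1.27 to 4.3 CPM over both libraries, and none of their intervals reached the lymphatic-like ones. Arterial-like ECs had 0 and 1 UMIs (0 and 10.04 CPM) and valve-like ECs 0 and 2 (0 and 12.8), with wide intervals; those of the arterial-like cluster (up to 35.5 and 55.9) overlapped the lymphatic-like ones. A Snai1 UMI was found in 11 of 235 lymphatic-like nuclei (4.68%) and 13 of 158 (8.23%), or 2.98% and 4.43% after thinning each nucleus to 500 UMIs. Mononuclear phagocytes (macrophages and related cells, median 881 and 942 UMIs), which served as a cell type that should lack the gene, had it in 0.0824% and 0.353% of nuclei. Lymphatic-like ECs were thus well above background and were at the level of fibroblasts, which held 55.2 and 49.5 CPM. Over all ECs the levels were 8.10 and 9.01 CPM, lower than in fibroblasts and mural nuclei (21.8 and 22.9). The intervals of fibroblasts and mural nuclei did not overlap, while those of mural nuclei and ECs did in the treated library.

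Snai2 (ENSMUSG00000022676, chr16:14705852-14709385, plus strand) encodes the related repressor Slug. Of the 58 Snai2 UMIs in control ECs, 50 lay in the capillary-like cluster, and of the 54 in treated ECs, 46 did. The capillary-like level was 53.7 CPM (39.8 to 70.8) and 70.2 (51.4 to 93.7). Snai2 was therefore a capillary gene among these ECs, with 3.46% and 3.75% of capillary-like nuclei holding a UMI (2.24% and 2.60% after thinning) beside 0.247% and 0.118% of mononuclear phagocytes. In the arterial-like cluster it was found in 0 of 90 and 0 of 73 nuclei, which allows up to 3.33% and 4.11% of nuclei with a UMI and, at this depth, sets no limit on nuclei that express the gene. Among cell types, ECs, fibroblasts and mural nuclei had overlapping intervals in the control library (19.6, 19.7 and 17.4 CPM), and in the treated library fibroblasts (42.7) lay above ECs (18.7).

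Twist1 (ENSMUSG00000035799, chr12:33957671-33959829, plus strand) encodes a basic helix-loop-helix factor of mesenchyme. It was sparse in ECs, with 17 UMIs among control nuclei and 37 among treated nuclei. The endocardial-like cluster held 10 and 24 of them, and the valve-like cluster, although small, 4 and 4. In CPM the valve-like cluster had 27.5 (7.50 to 70.4) and 25.5 (6.96 to 65.4), and the endocardial-like cluster 12.95 (6.21 to 23.8) and 24.4 (15.7 to 36.4). Capillary-like, lymphatic-like and arterial-like ECs held 1 Twist1 UMI in all. Control mononuclear phagocytes had 5.59 CPM (2.25 to 11.5), which overlapped both clusters, and treated ones had 0 UMIs (up to 3.92 CPM), below both. Cardiomyocytes had 0.821 CPM (up to 2.97), below both clusters, and 4.44 (up to 8.43), which overlapped the valve-like cluster. How far these clusters stood above background thus depended on the cell type taken for it, and both overlapped fibroblasts (25.4 and 23.7). Mesothelial nuclei, the outer lining of the heart, had the highest level of any cell type, at 40.2 (27.5 to 56.8) and 40.6 CPM (29.3 to 54.9), with intervals that overlapped those of fibroblasts.

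Zeb1 (ENSMUSG00000024238, chr18:5591860-5775467, plus strand) and Zeb2 (ENSMUSG00000026872, chr2:44983632-45117395, minus strand) encode large zinc finger and homeobox repressors. Zeb1 was found in 35.6% of control ECs and 29.4% of treated ECs, or 23.2% and 17.5% after thinning. Cardiomyocytes, which are deeper (median 1406.5 and 1435 UMIs), had 22.0% and 16.2%, or 8.02% and 6.07% after thinning. At equal depth ECs thus held Zeb1 more often than cardiomyocytes. Capillary-like ECs had the highest EC level in the control library, 836.5 CPM (779 to 897), and in the treated library, 659.6 (599 to 725). Endocardial-like ECs were lower, at 486 (438 to 537) and 353 (317 to 393), and fibroblasts were higher than any EC cluster, at 1145 (1107 to 1184) and 1014 (975 to 1054). The intervals of lymphatic-like and arterial-like ECs overlapped the capillary-like one in the control library but not in the treated library. In the order of cell types ECs came next after fibroblasts, with intervals that overlapped those of adipocytes and mural nuclei.

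Zeb2 ran nearly opposite to Zeb1 among the clusters. Its level was 402 and 433 CPM in endocardial-like ECs and 368 and 401 in the Ahsg H19 cluster, beside 121 and 105 in capillary-like ECs and 87.9 and 29.2 in lymphatic-like ECs. None of the intervals of the first pair of clusters met those of the second, but the arterial-like cluster, with 135 (73.6 to 226) and 281 (187 to 406), overlapped the first pair in the treated library. Across cell types, ECs were low for Zeb2. Mononuclear phagocytes led with 2529 and 2586 CPM, mural nuclei had 1475 and 1120, fibroblasts 907 and 736, and ECs 259 and 302, with an interval that overlapped that of T cells. A UMI of Zeb2 was seen in 17.4% and 20.6% of ECs (10.1% and 11.9% thinned) and in 20.9% and 18.4% of cardiomyocytes (7.01% and 6.35% thinned). Genes on the opposite strand overlap 3 members with UMIs of their own in ECs: Zeb2os (11 and 18 UMIs) for Zeb2, Gm10125 (116 and 85) for Zeb1, and Pcsk7 (194 and 185) and Gm48529 (12 and 7) for Tagln. Whether counting used the strand was not given in the sources used here, so reads of these pairs cannot be fully told apart.

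**Figure D1:**
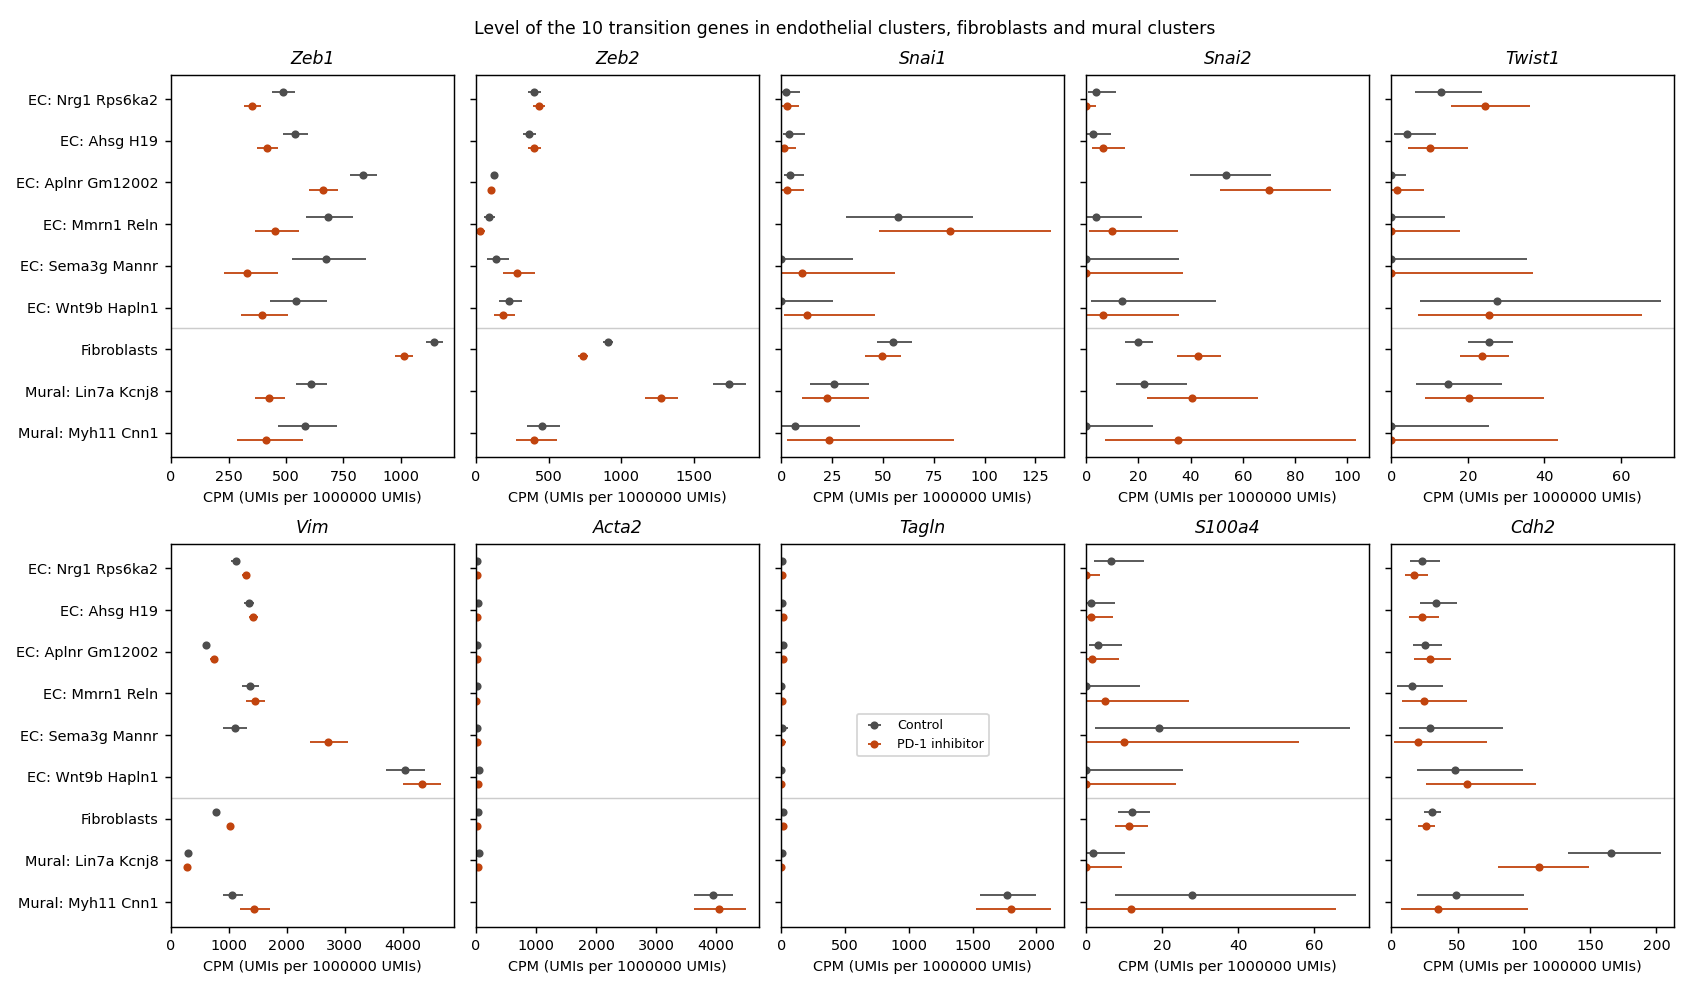
Level of each of the 10 genes (x axis, CPM) in the 6 endothelial clusters, fibroblasts and both mural clusters, with control in grey and PD-1 inhibitor in orange; points are 1 library each and lines are exact 95% Poisson intervals. Snai1 peaked in the Mmrn1 Reln cluster at 57.3 and 82.8, Snai2 in the Aplnr Gm12002 cluster at 53.7 and 70.2, Vim in the Wnt9b Hapln1 cluster at 4037 and 4328, and Acta2 in the Myh11 Cnn1 mural cluster at 3942 and 4043.

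Among the effector genes, Vim was strongly expressed in ECs themselves, while Acta2, Tagln, S100a4 and Cdh2 were at or near background there. Vim (ENSMUSG00000026728, chr2:13573927-13582826, plus strand) encodes vimentin, the intermediate filament protein of mesenchymal and endothelial cells. ECs had the highest Vim level of the 10 cell types, 1177 CPM (1138 to 1217) in the control library and 1429 (1386 to 1474) in the treated library. Fibroblasts had 778 and 1019 and mural nuclei 449 and 479, and only the glial nuclei, 31 and 10 in number, had intervals that reached those of ECs. Vim was seen in 47.6% and 53.9% of ECs (33.2% and 37.3% thinned) and in 16.7% and 20.3% of cardiomyocytes (6.85% and 6.26% thinned).

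Within ECs the Vim level spanned a wide range, lowest in capillary-like and highest in valve-like nuclei. The capillary-like cluster had 607 CPM (558 to 659) and 744 (679 to 813). The valve-like cluster had 4037 (3717 to 4377) and 4328 (4008 to 4666), with a UMI in 97 of 103 and 73 of 80 nuclei. Valve-like nuclei were thus the richest in Vim of the 6 EC clusters in both libraries. This cluster also held the highest EC levels of Cdh2, 48.1 (19.4 to 99.2) and 57.4 CPM (26.3 to 109.1), although these intervals overlapped those of other clusters.

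To set the genes beside each other, levels were divided by gene span in kb. In control ECs Vim had 132 CPM per kb, Snai2 5.54, Zeb1 3.47, Twist1 2.66, Zeb2 1.94, Snai1 1.75, S100a4 1.63, Acta2 1.47, Tagln 0.943 and Cdh2 0.124. The order in treated ECs also began with Vim, at 161, and ended with Cdh2, at 0.110. Vim therefore stood far above the other members on this scale, and the 5 transcription factors lay above the contractile genes, although Snai1, the lowest of them, rested on 24 and 26 UMIs. Whether UMIs rise in step with span was not tested, and the order of the other genes depends on this division. Without it, Acta2 in control ECs (21.3 CPM) was above Snai1 (8.10), Snai2 (19.6) and Twist1 (5.74) and below Zeb1 (636) and Zeb2 (259).

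Acta2 (ENSMUSG00000035783, chr19:34241090-34255590, minus strand) encodes smooth muscle alpha-actin, and Tagln (ENSMUSG00000032085, chr9:45929619-45936058, minus strand) the actin-binding protein transgelin. Both belonged to vascular smooth muscle in these hearts. The Myh11 Cnn1 mural cluster, smooth-muscle-like with 6 of 6 markers, had 3942 and 4043 CPM of Acta2 and 1767 and 1804 CPM of Tagln, and an Acta2 UMI in 82.1% and 90.7% of its nuclei (67.0% and 77.8% thinned). The pericyte-like mural cluster had 40.5 and 32.9 CPM of Acta2. Cardiomyocytes came next after mural nuclei in the order of cell types for Acta2, at 69.0 (59.0 to 80.2) and 51.8 (42.4 to 62.8), although the interval of the 80 treated B cells overlapped theirs.

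In ECs an Acta2 UMI was found in 49 of 2804 control nuclei, or 1.75% (exact Clopper-Pearson 95% interval 1.30% to 2.30%), and in 36 of 2509 treated nuclei, or 1.43% (1.01% to 1.98%). Mononuclear phagocytes, which should lack the gene, had 1.81% and 1.53%, and T cells (median 846 and 889 UMIs) 1.67% and 0.515%. After thinning, the EC shares were 0.963% and 0.797% and those of mononuclear phagocytes 0.824% and 1.06%. The EC share was therefore at the background level in both libraries and is not read as expression. Fibroblasts, with 1.94% and 2.08%, were at the same level, whereas cardiomyocytes were higher, at 6.62% and 5.34% (2.88% and 1.93% thinned). Of the 6 EC clusters, the valve-like cluster had the highest share, 5 of 103 nuclei (4.85%, interval 1.59% to 10.97%) and 4 of 80 (5.00%, 1.38% to 12.3%), at the largest median depth of any EC cluster (1231 and 1671.5 UMIs), and thinned shares of 1.94% and 2.5%. With so few nuclei its interval still reached that of mononuclear phagocytes.

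**Figure D2:**
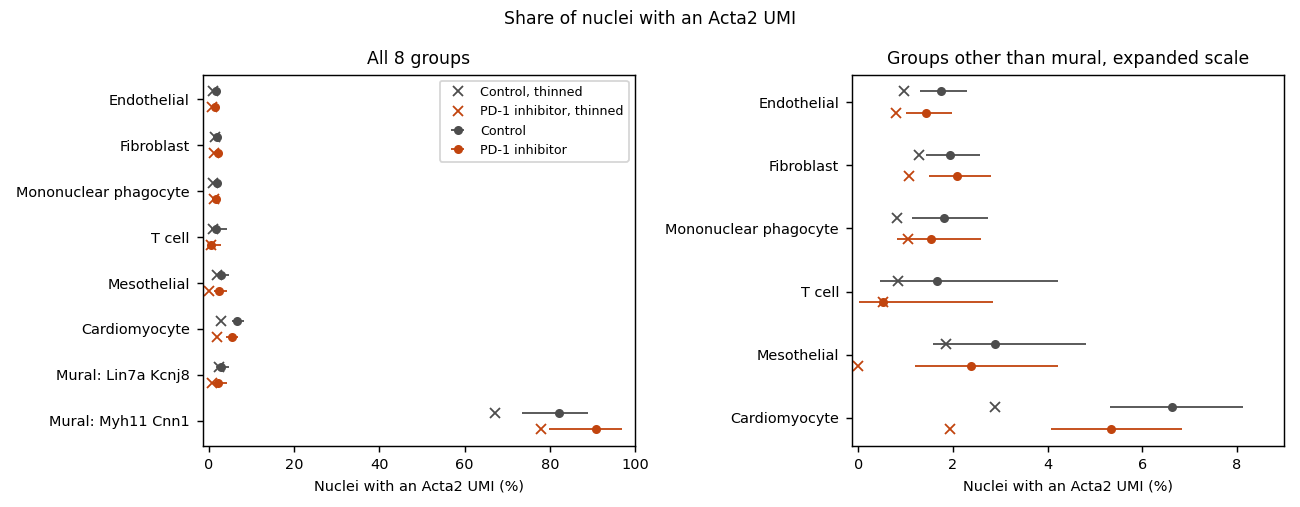
Share of nuclei with an Acta2 UMI (x axis, %) by cell type, as points with exact 95% Clopper-Pearson intervals, and crosses for the share after thinning to 500 UMIs; control is grey, PD-1 inhibitor orange, and the right panel enlarges the groups other than mural. ECs, at 1.75% and 1.43%, lay beside mononuclear phagocytes at 1.81% and 1.53%, while the Myh11 Cnn1 mural cluster reached 82.1% and 90.7%.

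The contractile genes were also counted together in single nuclei. EC nuclei with both an Acta2 and a Tagln UMI numbered 0 of 2804 in the control library, which allows up to 0.107% of nuclei with both UMIs, and 1 of 2509 in the treated library. In the smooth-muscle-like cluster 62 of 106 and 37 of 54 nuclei held both, so at this depth nuclei with lower levels of both genes could go unseen. Among ECs with a Pecam1 or Cdh5 UMI, 41 of 2116 (1.94%) and 29 of 1933 (1.5%) had an Acta2 UMI, close to the shares over all ECs. Of the 49 and 36 EC nuclei with an Acta2 UMI, 8 and 6 also had a UMI of any of the 12 mural markers, at 16.3% and 16.7% beside 15.9% and 17.1% of all ECs. Acta2-positive EC nuclei thus carried mural markers about as often as other ECs did. The Acta2 share of the summed Acta2 and Tagln UMIs was 77.8% (67.2% to 86.3%) and 63.0% (50.9% to 74.0%) in ECs, and 69.1% (65.8% to 72.2%) and 69.2% (64.9% to 73.2%) in the smooth-muscle-like cluster, so the intervals of ECs and smooth muscle overlapped in each library. In cardiomyocytes it was 85.3% (79.5% to 89.9%) and 84.7% (77.1% to 90.5%), above smooth muscle in both. The EC interval also overlapped that of cardiomyocytes in the control library and lay below it in the treated library.

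The remaining effectors were low in ECs. Tagln held 18 and 27 UMIs in ECs, in 0.606% and 0.797% of nuclei beside 0.495% and 0.471% of mononuclear phagocytes. S100a4 (ENSMUSG00000001020, chr3:90603771-90606045, plus strand), a calcium-binding protein also called fibroblast-specific protein, held 11 and 4 UMIs in ECs. Its highest level was in T cells, 83.3 CPM (50.9 to 128.7) and 88.8 (52.6 to 140.4), while fibroblasts had 12.0 and 11.3, so T cells held more of it per UMI than fibroblasts did. Cdh2 (ENSMUSG00000024304, chr18:16588877-16809246, minus strand) encodes N-cadherin, the adhesion protein that couples cardiomyocytes. Cardiomyocytes led with 650.1 and 517 CPM, pericyte-like mural nuclei had 166 and 111, and ECs 27.3 and 24.2 beside 26.3 and 12.7 in mononuclear phagocytes.

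Most ECs carried a UMI of at least 1 of the 10 genes, 72.8% in the control library and 74.9% in the treated library, and 28.9% and 30.4% carried UMIs of at least 2. A transcription factor and an effector UMI met in 24.4% and 26.1% of ECs and in 36.0% and 40.4% of fibroblasts. No EC nucleus held UMIs of 5 or more of the 10 genes, whereas 9 and 12 fibroblasts and 14 and 2 mural nuclei did. These shares were not thinned and rise with depth, and fibroblasts were the deeper nuclei.

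Between the libraries, ECs of treated hearts held less Zeb1 and somewhat more Vim than control ECs, while the contractile and adhesion genes were not distinguishable at this depth. Relative to genes of like span, described below, the Vim ratio was within counting error of 0. Both ratios had the same direction in most other cell types, although several of those intervals included 0. Log2 ratios are of PD-1 inhibitor over control CPM, with 0.5 UMI added to each sum, and 8 of the 10 genes had the required 50 UMIs in ECs of both libraries together (Tagln had 45 and S100a4 15). Of these 8 genes, 1, Twist1, was at least 1.5-fold higher, beside 6.12% of the 10693 genes with 50 UMIs, and 0 were at least 1.5-fold lower, beside 4.51%. The median log2 ratio of the 8 genes was 0.04, beside 0.01 over all genes tested. The members went both ways, with 4 ratios above 0 and 4 below, so their median describes no shared direction. Of the 8 intervals 3 lay above 0 and 1 below, beside 1630 and 1609 of the 10693 genes. The counts of 1.5-fold differences did not set the list apart from the background of these libraries.

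Zeb1 had 1885 UMIs in control ECs and 1297 in treated ECs, or 636 (608 to 666) and 449 (425 to 474) CPM, a log2 ratio of -0.50 (-0.60 to -0.40). It was the lowest ratio among the 8 genes. Vim went from 3487 to 4126 UMIs, which is a log2 ratio of 0.28 (0.21 to 0.35), and Zeb2 from 768 to 873 UMIs, which is a log2 ratio of 0.22 (0.08 to 0.36). The Zeb2 ratio depended on the choice of nuclei, at 0.06 with the same mix of clusters in both libraries, -0.14 over every nucleus with a Pecam1 or Cdh5 UMI, whatever its cluster, and 0.42 in ECs without fibroblast or mural marker UMIs, and it was above 0 under 14 of 15 alternatives. The shifts of Zeb1 and Vim were not particular to ECs, since Zeb1 was below 0 in 9 of 10 cell types, with 6 intervals below 0, and Vim was above 0 in 10 of 10, with 5 intervals above 0. Twist1 had the highest ratio, 1.14 (0.29 to 2.08), but from 17 UMIs in 15 nuclei and 37 UMIs in 25 nuclei, or 5.74 and 12.8 CPM. After thinning it was seen in 0.285% and 0.319% of ECs with a log2 ratio of 0.16, which is too few UMIs to read as a change.

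For Acta2, 63 and 46 UMIs (21.3 and 15.9 CPM) gave a log2 ratio of -0.41 (-0.997 to 0.16). Snai1 had 0.15 (-0.70 to 1.02), Snai2 -0.06 (-0.63 to 0.49) and Cdh2 -0.17 (-0.66 to 0.31). All 4 intervals included 0, so no difference was detectable for these genes. Below the minimum of 50 UMIs, Tagln had 0.61 (-0.29 to 1.57) and S100a4 -1.32 (-3.53 to 0.33).

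Fibroblast genes moved with these results. The 13 fibroblast markers summed to 2909 CPM in control ECs and 3925 in treated ECs, none of them at 0, and the most abundant, Dcn, had 1290 and 2132. The 12 mural markers summed to 266 and 256, with Rgs5 the most abundant and none at 0. Fibroblasts hold more Zeb1, Zeb2 and Twist1 than ECs do and less Vim. The part of fibroblast RNA in the ratios of Vim, Zeb2 and Twist1 was not tested.

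Gene span moved with the ratios as well. When the genes tested in ECs were put into 5 bins of equal size by span, the median log2 ratio was 0.22 in the shortest, then 0.09, 0.03 and -0.06, and -0.17 in the longest. Vim, at 8.90 kb, sat in the shortest bin together with Snai1, Snai2 and Twist1, and Zeb1 (184 kb), Zeb2 (134 kb) and Cdh2 (220.4 kb) in the longest. Relative to genes of like span, a choice made after seeing the data, Vim was at 0.06 (-0.01 to 0.12), Zeb1 at -0.33 (-0.43 to -0.23) and Zeb2 at 0.39. On that scale the Vim ratio was within counting error of 0 and Zeb1 was still below it. Here and below, intervals on that scale cover counting error only and leave out the spread of genes within a bin. The Zeb2 value was not adjusted for the different mix of clusters. Within single clusters the Zeb2 interval lay above the median of its span bin in 2 of 4, the endocardial-like and Ahsg H19 ones.

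**Figure D3:**
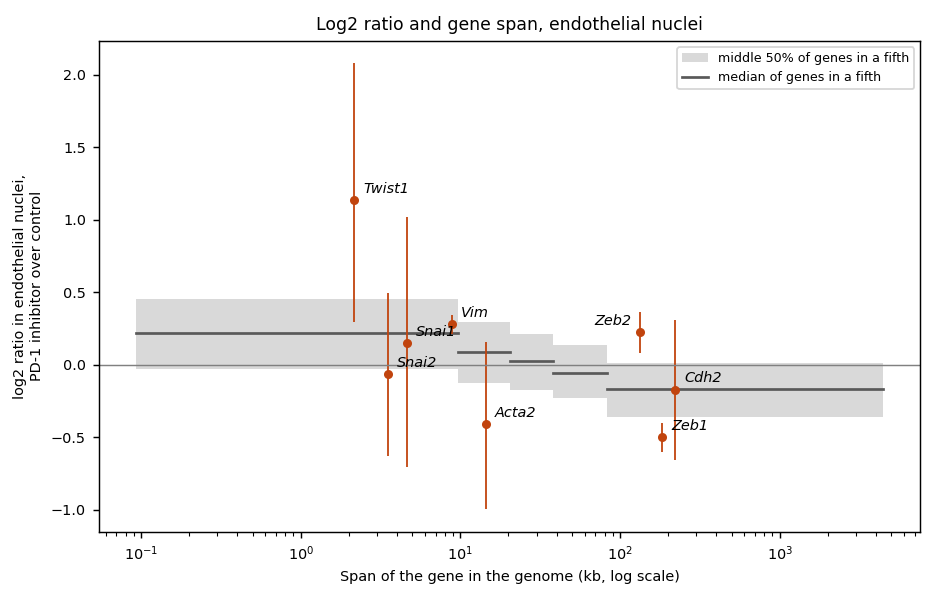
Log2 ratio of PD-1 inhibitor over control in ECs (y axis) against gene span (x axis, kb, log scale); lines and grey boxes are the median and the middle 50% of genes in each of 5 span bins, and orange points are the 8 transition genes with at least 50 UMIs, with 95% intervals. The bin medians ran from 0.22 to -0.17; Vim at 0.28 lay near its bin, while Zeb1 at -0.50 lay below and Zeb2 at 0.22 above theirs.

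The direction for Zeb1 and Vim was shared by all EC clusters, and that for Zeb2 was not. Zeb1 was below 0 in 6 of 6 clusters, and 5 of the 6 intervals excluded 0. The ratios ran from -0.34 (-0.52 to -0.17) in capillary-like ECs to -1.01 (-1.67 to -0.41) in arterial-like ECs, where 70 UMIs stood beside 33. Vim was above 0 in 6 of 6 clusters, with 3 intervals above 0, those of the endocardial-like (0.22), capillary-like (0.29) and arterial-like clusters. The arterial-like cluster stood out, with 114 UMIs in 90 nuclei and 270 UMIs in 73 nuclei, or 1096 (904 to 1316) and 2711 (2397 to 3054) CPM, a log2 ratio of 1.30 (0.99 to 1.64). The share of its nuclei with a Vim UMI was 48.9% and 60.3% (31.1% and 45.2% thinned). The highest Vim ratio thus came from the smallest EC cluster. The span bin of Vim had a median above 0 in each of the 6 clusters, and only in the arterial-like cluster did the Vim interval lie above that median. For Zeb1 the interval lay below the median of its bin in 3 of 6 clusters, the endocardial-like, Ahsg H19 and arterial-like ones.

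Zeb2 was above 0 in 3 clusters and below 0 in 3. It had 0.11 (-0.11 to 0.32) in endocardial-like ECs and 0.12 (-0.11 to 0.36) in the Ahsg H19 cluster, the clusters that hold most Zeb2 and made up more of the treated ECs. In lymphatic-like ECs 23 and 6 UMIs gave -1.50 (-3.17 to -0.25), and in arterial-like ECs 14 and 28 UMIs gave 1.04 (0.09 to 2.10). Snai2 in capillary-like ECs, with 50 and 46 UMIs, had 0.39 (-0.22 to 0.99), and Snai1 in lymphatic-like ECs, with 15 and 17 UMIs, had 0.53 (-0.56 to 1.64). No difference was detectable in either cluster that carries these factors.

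In fibroblasts the gene that differed most was Snai2, and Vim was again higher in the treated library. All 10 genes had 50 UMIs there. Of them 1, Snai2, was at least 1.5-fold higher, beside 5.53% of the 10581 genes tested, and 0 were at least 1.5-fold lower, beside 4.02%. The median of the 10 was -0.16, beside 0.00 over all genes, and 8 of the 10 ratios were below 0, beside 5309 of the 10581 genes. Of the 10 intervals 2 lay above 0 and 2 below, beside 1425 and 1492 of all genes, so the median describes no shared direction. Snai2 went from 59 UMIs in 44 nuclei to 106 UMIs in 74 nuclei, or from 19.7 (15.03 to 25.5) to 42.7 CPM (34.9 to 51.6), a log2 ratio of 1.11 (0.64 to 1.60). It was above 0 in all 4 fibroblast clusters, and in the Cilp Cd248 cluster 9 UMIs stood beside 37, a log2 ratio of 1.89 (0.87 to 3.19). The 13 alternatives that gave a value kept it between 0.91 and 1.27. A Snai2 UMI was present in 1.78% and 3.76% of fibroblasts (0.85% and 1.73% thinned), well above mononuclear phagocytes. In mural nuclei 12 and 19 Snai2 UMIs gave 1.16 (0.06 to 2.36). Snai2 in ECs was at -0.06, and the difference between the cell types was not tested.

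Vim in fibroblasts had 2324 and 2532 UMIs, which is a log2 ratio of 0.39 (0.31 to 0.47), while Zeb1 had -0.18 (-0.25 to -0.10) and Zeb2 -0.30 (-0.39 to -0.22). Relative to genes of like span these became 0.19 (0.11 to 0.27), 0.00 (-0.08 to 0.07) and -0.13 (-0.21 to -0.04), so on that scale Zeb1 in fibroblasts did not differ detectably. Acta2, the marker of activated myofibroblasts, had 78 and 55 UMIs and -0.23 (-0.76 to 0.28). In the Cilp Cd248 fibroblast cluster Tagln had 32 UMIs in 17 control nuclei and 6 UMIs in 4 treated nuclei, a log2 ratio of -2.41 (-4.05 to -1.23), and Acta2 35 and 19 UMIs in 17 nuclei each, or -0.95 (-1.86 to -0.12). The other 3 fibroblast clusters had few UMIs of Tagln (3 and 9, 4 and 9, 10 and 12), with ratios above 0, the Rgs17 Cxcl14 cluster had 24 and 8 UMIs of Acta2, or -0.91 (-2.33 to 0.24), and the Wif1 Chad cluster 6 and 13, in 3.70% and 10.2% of its nuclei (2.78% and 2.27% thinned). The intervals of both genes included 0 in fibroblasts as a whole, so no difference was detectable there, although the UMI sums of both were lower in the Cilp Cd248 cluster. In that cluster the share of nuclei with an Acta2 UMI was 2.89% and 2.91%, and 8 and 2 nuclei held 2 or more Acta2 UMIs, so few nuclei carried the lower Acta2 sum.

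Mural nuclei were lower for Zeb1 and Zeb2 in the treated library. Here 6 genes had 50 UMIs (Zeb1, Zeb2, Vim, Acta2, Tagln and Cdh2), of which 0 were at least 1.5-fold higher, beside 8.05% of the 5205 genes tested, and 0 at least 1.5-fold lower, beside 8.9%. Their median was -0.31, beside -0.02 over all genes. Zeb1 had -0.50 (-0.75 to -0.26), Zeb2 -0.40 (-0.55 to -0.24) and Cdh2 -0.52 (-1.06 to -0.01), and all 3 are long genes of the bin whose median in mural nuclei was -0.20. Relative to genes of like span Zeb1 was at -0.31 (-0.56 to -0.06), Zeb2 at -0.20 (-0.35 to -0.05) and Cdh2 at -0.32 (-0.86 to 0.19), so Cdh2 no longer differed detectably, while Acta2 was at -0.44 (-0.64 to -0.25) and Tagln at -0.46 (-0.76 to -0.16). The Zeb2 ratio of -0.40 lay within the middle 50% of genes in its span bin (-0.42 to 0.02). Acta2, with 591 and 356 UMIs, was at -0.21 (-0.41 to -0.02) over all mural nuclei. The smooth-muscle-like cluster was 17.8% of control and 12.8% of treated mural nuclei, and within it Acta2 had 0.04 (-0.16 to 0.23) and Tagln 0.03 (-0.27 to 0.32). Within smooth-muscle-like nuclei, then, neither contractile gene differed detectably.

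**Figure D4:**
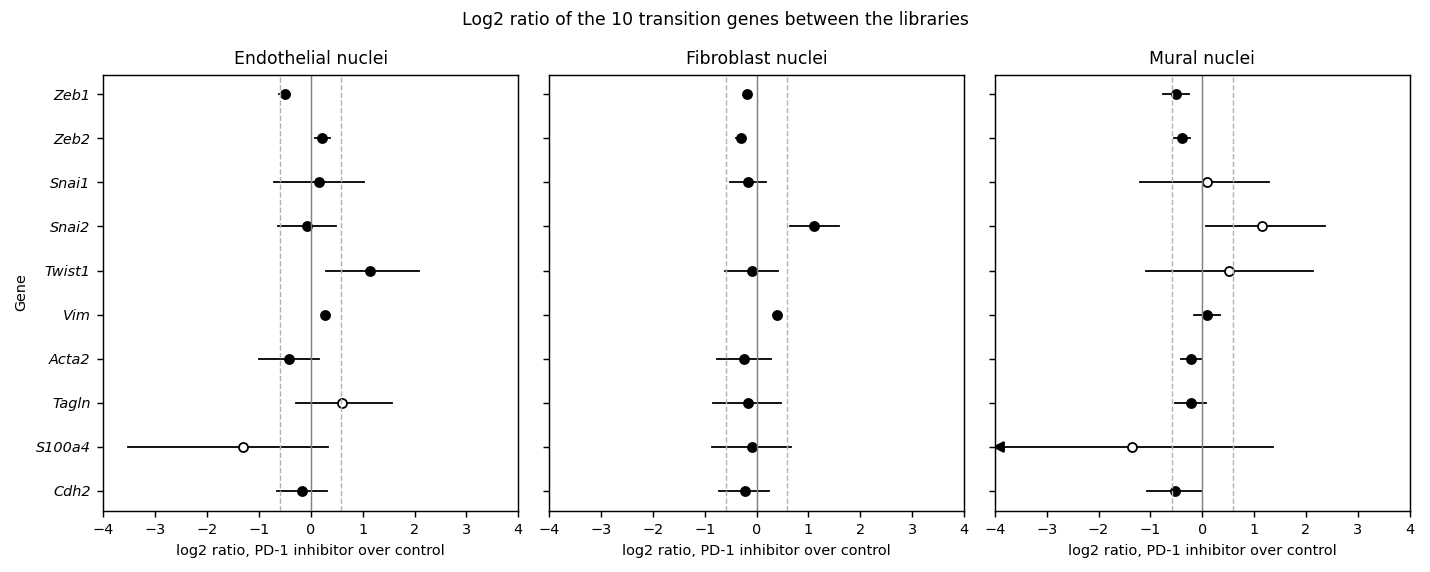
Log2 ratio of PD-1 inhibitor over control (x axis) for the 10 genes in ECs, fibroblasts and mural nuclei, with 95% counting intervals; filled points have at least 50 UMIs, open points fewer, dashed lines mark 1.5-fold, and an arrowhead marks an interval that runs past the axis. Zeb1 lay below 0 in all 3 cell types, at -0.50, -0.18 and -0.50, and Snai2 in fibroblasts reached 1.11.

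The genes around the transition were followed in 5 lists. The endothelial identity list, which a transition would lower, had 18 of 18 genes with 50 UMIs in ECs, of which 0 were at least 1.5-fold higher and 1, Fli1, lower (all genes 6.12% and 4.51%), with a median log2 ratio of 0.04. Fli1, an ETS factor of endothelial genes, had -0.68 (-0.78 to -0.57) and Kdr, the main VEGF receptor, -0.32 (-0.42 to -0.21). Sox18, a factor of vessel growth, had 0.46 (0.31 to 0.61) and Egfl7, a secreted endothelial protein, 0.51 (0.00 to 1.04). Relative to genes of like span Egfl7 was at 0.42 (-0.09 to 0.95), an interval that included 0. Of the junction genes that define ECs, Pecam1 was at 0.11 (0.05 to 0.17), or 0.28 (0.22 to 0.34) relative to genes of like span, and Cdh5 was at 0.04 (-0.06 to 0.14). Cldn5 went the other way, at -0.16 (-0.36 to 0.04), or -0.38 (-0.59 to -0.18) relative to genes of like span. Esam was at 0.04 (-0.10 to 0.18), or -0.05 (-0.19 to 0.09) on that scale. In sum the list came to 13396 CPM in control ECs and 13477 in treated ECs. Most genes of this list, Pecam1, Cdh5 and Kdr among them, are also among the 15 markers that named the ECs. Nuclei that had lost these genes could thus fall outside the EC clusters. For that reason the level of the list within ECs cannot show whether endothelial identity was lost.

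The mesenchymal matrix list summed to 3691 CPM in control ECs and 4996 in treated ECs. Of its 17 genes, all with 50 UMIs, 3 were at least 1.5-fold higher and 0 lower, beside 6.12% and 4.51% of all genes tested, with a median log2 ratio of 0.15. Much of the gain in the sum was Dcn, which went from 1290 to 2132 CPM with a log2 ratio of 0.73 (0.67 to 0.78). By cluster the sum went from 5295 to 7324 CPM in endocardial-like ECs, which also made up more of the treated ECs. It went from 2015 to 2228 in capillary-like ECs and from 4623 to 5043 in the Ahsg H19 cluster. Lymphatic-like ECs had 2001 and 2402, arterial-like ECs 3201 and 4046, and valve-like ECs 4511 and 5745. The median log2 ratios of the list, in that order of clusters, were 0.12, 0.14, -0.02, 0.18, 0.78 and 0.31. In arterial-like ECs only 5 genes of the list had 50 UMIs, of which 3 were at least 1.5-fold higher, beside 78 of all 746 genes tested there. Lox, a collagen cross-linking enzyme, had 0.83 (0.48 to 1.18) and Lum, a matrix proteoglycan, 0.82 (0.68 to 0.96). The fibroblast protease Fap had -0.12 (-0.58 to 0.34) and Pdgfrb, the PDGF receptor of mural cells, -0.07 (-0.43 to 0.29). In fibroblasts the same list summed to 21399 and 26899 CPM with a median log2 ratio of 0.14. In ECs the collagen genes Col1a1, Col1a2 and Col3a1 had 0.06, 0.08 and 0.13, with intervals that included 0. Col5a1, with 82 and 116 UMIs, had 0.54 (0.12 to 0.96). Relative to genes of like span Col5a1 was at 0.71 (0.29 to 1.13) and Col3a1 at 0.19 (0.01 to 0.36), while the intervals of Col1a1 and Col1a2 still included 0. The Col3a1 ratio of 0.127 lay within the middle 50% of genes in its span bin (-0.231 to 0.134). Dcn and Lum are also among the fibroblast markers, and whether the EC values are the cells' own transcripts was not tested.

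Smooth muscle contractile genes had 7 of 12 members with 50 UMIs in ECs, of which 0 were at least 1.5-fold higher and 2 lower (all genes 6.12% and 4.51%), with a median of -0.18. The lower genes were Myocd, the coactivator that switches on smooth muscle genes, with 115 and 42 UMIs and -1.40 (-1.96 to -0.89), and Myh11, smooth muscle myosin, with 46 and 29 UMIs and -0.62 (-1.35 to 0.07). The 1213 and 849 mononuclear phagocytes held 18 and 14 Myh11 UMIs, so Myh11 in ECs was near background and is not read as expression. Myocd was not set beside that background. Its lower ratio was not particular to ECs, with -0.54 (-1.10 to -0.01) in fibroblasts and -0.86 (-1.33 to -0.43) in mural nuclei. Tpm1, a tropomyosin, had 0.37 (0.28 to 0.46) and the intermediate filament gene Des 0.28 (-0.05 to 0.62). Of the 7 genes, 2 were above 0 and 5 below, beside 5416 and 5277 of all genes tested.

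The TGF-beta and SMAD list had 21 of 21 genes with 50 UMIs, 1 at least 1.5-fold higher and 0 lower (all genes 6.12% and 4.51%), with a median of 0.04. Its highest genes were Id2 at 0.62 (0.49 to 0.76) and Id3 at 0.38 (0.29 to 0.48), inhibitors of basic helix-loop-helix factors, and its lowest the signal transducers Smad2 at -0.48 (-0.74 to -0.22) and Smad1 at -0.38 (-0.57 to -0.19). Tgfb1 itself, a ligand that induces the transition, had 0.14 (-0.06 to 0.34). Among other transition factors 6 of 11 genes had 50 UMIs, 0 were past 1.5-fold in either direction (all genes 6.12% higher and 4.51% lower), and the median was -0.03. Foxc1, a forkhead factor of vessel and valve development, had 0.52 (0.37 to 0.67) and Klf8, a Kruppel-like repressor, 0.37 (-0.13 to 0.88). The E proteins Tcf12 and Tcf4 had -0.42 (-0.53 to -0.31) and -0.20 (-0.26 to -0.13). Relative to genes of like span Tcf4 was at -0.03 (-0.09 to 0.04) and Tcf12 at -0.25 (-0.36 to -0.14), while Fli1 (-0.51), Kdr (-0.26), Sox18 (0.24), Lox (0.74), Lum (0.59), Tpm1 (0.34), Myocd (-1.23), Id2 (0.40), Id3 (0.16), Smad2 (-0.42), Smad1 (-0.32), Foxc1 (0.30) and Klf8 (0.54) kept their direction with intervals that left out 0. Of these, Id3 at 0.38 before the shift lay within the middle 50% of genes in its span bin (-0.03 to 0.46). Relative to genes of like span Vwf, which encodes von Willebrand factor, was the highest gene of the endothelial identity list, at 0.54 (0.47 to 0.60). The list medians on that scale were 0.05 for endothelial identity, 0.19 for mesenchymal matrix, -0.19 for contractile, 0.04 for TGF-beta and SMAD and 0.08 for other transition factors.

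Over the 10 cell types in both libraries (20 points that share libraries and depth), the genes whose levels ran most like Tagln among 11474 genes were Tpm2, Higd1b and Gm13889, with Pearson correlations of 0.93, 0.89 and 0.88, of which Tpm2 is a smooth muscle tropomyosin and Higd1b a pericyte marker. Vim ran with Mapk3 (0.89), Rhoa (0.89) and Cd9 (0.87), Zeb1 with Enc1 (0.82), Mir100hg (0.82) and Arl15 (0.81), Zeb2 with Lrrc8d (0.85), Agmo (0.83) and Cdk14 (0.83), and S100a4 with Antxr2 (0.85), Cgas (0.85) and Trbc1 (0.82). Trbc1 encodes a T cell receptor chain.

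SNAIL, ZEB and TWIST factors recognise E-boxes, with the letters CANNTG, and SNAIL and ZEB proteins prefer CACCTG. Both were searched on both strands in RefSeq promoters (build GRCm38.p6, 250 bases before to 50 after each gene start), where CANNTG was present in 72.3% and CACCTG in 20.2% of 32851 promoters of 27025 genes; every CACCTG is also a CANNTG. Promoters of 6 members were examined. CANNTG was found in Acta2, with 3 matches at 228, 220 and 182 bases before the start, and in Snai1, with 1 match at 126 bases before the start that is also the CACCTG form. Those of Vim, Twist1, S100a4 and Zeb2 did not contain these letters, and Snai2, Tagln, Zeb1 and Cdh2 were not examined. The Acta2 promoter (chr19:34255324-34255623, minus strand) and the Snai1 promoter (chr2:167537945-167538244, plus strand) are shown because Acta2 is the contractile marker whose EC level was at background and Snai1 the factor that peaked in lymphatic-like ECs. Capitals mark the E-box letters, which describe the sequence and show no binding.
Acta2: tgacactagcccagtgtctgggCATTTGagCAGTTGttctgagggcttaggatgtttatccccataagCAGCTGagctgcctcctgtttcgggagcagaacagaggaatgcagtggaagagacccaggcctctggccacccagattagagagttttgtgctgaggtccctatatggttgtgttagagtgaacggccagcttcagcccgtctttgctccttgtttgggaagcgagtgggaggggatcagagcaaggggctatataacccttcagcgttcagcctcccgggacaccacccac
Snai1: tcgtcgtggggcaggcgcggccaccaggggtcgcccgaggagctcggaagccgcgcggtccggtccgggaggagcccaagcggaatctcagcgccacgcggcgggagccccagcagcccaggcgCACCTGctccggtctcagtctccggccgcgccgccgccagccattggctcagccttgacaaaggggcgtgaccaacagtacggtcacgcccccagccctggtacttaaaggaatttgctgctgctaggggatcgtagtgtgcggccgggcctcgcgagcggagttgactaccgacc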

How the data were processed

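The authors deposited UMI counts per gene and nucleus for both libraries, from a Singleron GEXSCOPE single-nucleus kit. The aligner and counter were not given in the sources used here, and the submitters' processing notes name GRCm38 (mm10). The members and lists were chosen with earlier results of these data known.

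The filter asked for 200 genes per nucleus and for mitochondrial UMIs of 20% or less. Doublets called by Scrublet in each library (5.85% and 3.87% of the barcodes that passed this filter) were left out. Clusters came from scanpy 1.11.5 with 2000 variable genes, none of them a member, 30 principal components, 15 neighbours and Leiden resolution 1 (igraph 0.11.9), giving 22 clusters. Cell type names were rebuilt from marker lists, a cluster needing 3 detected markers, and differences from the study may come from that. The rule that left clusters of proliferating nuclei unnamed, set at 50% after the clusters were seen, applied to 72 and 46 nuclei. The check of the ratios on simulated counts recovered the folds it was given.

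UMIs were summed over nuclei. Levels are counts per 1000000 UMIs (CPM) with exact Poisson intervals, shares have Clopper-Pearson intervals, and log2 ratios have conditional binomial intervals (SciPy 1.17.1), all at 95%. A gene entered the medians and the counts of 1.5-fold differences with at least 50 UMIs over both libraries. Named genes are the members, the 2 highest and 2 lowest ratios of each list in ECs, Pecam1, Cdh5, Tgfb1 and Tcf12, and the 3 genes most like each of 6 members. Some further list genes, such as Dcn, Vwf, Cldn5, Esam and the collagen genes, are named to describe their list. Gene positions come from GENCODE vM21 on GRCm38. Alternatives, 15 planned and 2 added after seeing the data, changed filters, doublets, clustering, the definition of ECs, totals, centring, depth, cluster mix and the minimum.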

Additional observations from a re-analysis of the deposited data

Results flagged for a closer look

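Zeb2 had opposite directions in different cell types of the same libraries. Its log2 ratio of PD-1 inhibitor over control was 0.22 in ECs, with 768 and 873 UMIs, and -0.30 in fibroblasts, with 2710 and 1828 UMIs. In mural nuclei it was -0.40, with 1015 and 538 UMIs. The intervals did not overlap, but there was 1 library per condition and the difference between ECs and either cell type was not tested. The EC clusters with most Zeb2 also made up more of the PD-1 inhibitor ECs, and the ratio in ECs was 0.06 with the same mix of clusters in both libraries.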

How the results depend on the processing

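No paired analysis was possible because each condition had 1 library. Under the 17 alternatives, 2 of them chosen after seeing the data, the median log2 ratio of the members in ECs ran from -0.27 to 0.19. These values stayed between the median of the members' lower interval limits and the median of their upper limits. That range reflects the intervals of single genes and is not an interval of the median itself. Zeb1 in ECs was below 0 and Vim above 0 under all 15 alternatives that change a ratio, from -0.59 to -0.33 for Zeb1 and from 0.06 to 0.38 for Vim. The number of members at least 1.5-fold higher in ECs was 0 without nuclei holding a fibroblast or mural marker UMI, where 3 members had 50 UMIs, and 0 after thinning, where 5 had. It was 2 with a minimum of 20 UMIs and 2 with no minimum. The number at least 1.5-fold lower was 1 for every nucleus with a Pecam1 or Cdh5 UMI, 1 without nuclei holding those marker UMIs and 1 with no minimum. The share of ECs with an Acta2 UMI was 2.67% and 2.24%, control first, among all nuclei with a Pecam1 or Cdh5 UMI and 0.963% and 0.797% after thinning, which leaves fewer UMIs per nucleus. It was 1.65% of 485 control and 2.11% of 331 PD-1 inhibitor ECs without fibroblast or mural marker UMIs, where the order of the libraries turned. Among ratios whose main interval left out 0, the sign turned for Zeb2 in ECs, -0.14 for every nucleus with a Pecam1 or Cdh5 UMI, for Twist1 in ECs, -0.59 without nuclei holding fibroblast or mural marker UMIs, and for Acta2 in mural nuclei, 0.12 with at least 500 genes per nucleus and 0.025 with the same mix of clusters. The first of the Acta2 values rests on 1 mural cluster in place of 2; for the others the cause was not tested. Ratios whose main interval included 0 turned sign more often, at 15 values from 5 of 6 members in ECs, 3 values from 2 of 6 in fibroblasts and 3 values from 2 of 2 in mural nuclei. Of the 150 log2 ratios of members in ECs under alternatives, 136 stayed within the interval of the main value. Depth limits the sparse genes, of which Twist1, Snai1, Tagln and S100a4 had under 55 UMIs in ECs of both libraries together.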
